A study of Mus musculus with 18 samples.

Results

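The Cyp3a genes encode the mouse enzymes of cytochrome P450 subfamily 3A, heme proteins of the endoplasmic reticulum that oxidize steroids, bile acids, sterols and many drugs. The 8 genes described here, Cyp3a11, Cyp3a13, Cyp3a16, Cyp3a25, Cyp3a41a, Cyp3a41b, Cyp3a44 and Cyp3a59, were taken by symbol from a liver RNA-Seq count table of 55487 genes. Each was followed in 18 livers of male C57BL/6J mice, split evenly into 3 groups of 6, and each mouse gave 1 library.

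The control group, CON-GFP, ate a purified diet. The FPC-GFP group and the FPC-LIPA group ate the FPC diet, a diet rich in fructose, palmitate and cholesterol that was given with fructose-glucose water. The diets lasted 16 weeks and began 1 week after injection of an adeno-associated virus (AAV8), in mice that were young adults when they were bought, and livers were taken after a short fast. The virus carried human LIPA, which encodes lysosomal acid lipase, in FPC-LIPA mice and GFP in the other groups. In every group the transgene was driven by TBG, a promoter active in hepatocytes, so no liver was free of virus, and no library of LIPA on the control diet was analysed here. The question put to the Cyp3a genes was therefore how their RNA differed with the FPC diet under GFP, and with LIPA in place of GFP on the FPC diet.

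Cyp3a enzymes receive electrons from cytochrome P450 reductase (Por), helped by cytochrome b5. Their genes are classical targets of the nuclear receptors PXR (Nr1i2) and CAR (Nr1i3), which pair with RXR alpha (Rxra) and respond to drugs, steroids and bile acids. Cyp3a11 is the main Cyp3a enzyme of adult mouse liver, Cyp3a25 and Cyp3a13 are expressed in liver and intestine, and Cyp3a41a, Cyp3a41b and Cyp3a44 are known as genes of female liver. Cyp3a16 is known from fetal and young liver. Cyp3a59 is a close relative of Cyp3a25.

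All 8 are protein-coding genes of chromosome 5 (GRCm38). In the annotation GENCODE M21, Cyp3a13 lay apart at chr5:137892932-137921619 on the minus strand. The other 7 formed a cluster, in the order Cyp3a16 (chr5:145436309-145469723), Cyp3a41b (chr5:145558664-145584730), Cyp3a41a (chr5:145694049-145720136), Cyp3a44 (chr5:145773983-145805874), Cyp3a11 (chr5:145854426-145879964), Cyp3a25 (chr5:145977194-146009618) and Cyp3a59 (chr5:146079257-146113287). Cyp3a59 was on the plus strand and the rest were on the minus strand.

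How far the genes resemble each other bears on how well their reads can be told apart, so the first 60 coding bases of each are shown, with bases that differ from Cyp3a11 in capitals.
Cyp3a11: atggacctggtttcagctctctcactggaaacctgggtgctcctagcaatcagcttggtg
Cyp3a41a: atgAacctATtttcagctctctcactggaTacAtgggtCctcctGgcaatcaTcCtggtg
Cyp3a41b: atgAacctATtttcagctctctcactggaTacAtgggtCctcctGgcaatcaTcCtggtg
Cyp3a44: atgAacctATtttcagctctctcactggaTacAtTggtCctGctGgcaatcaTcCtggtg
Cyp3a16: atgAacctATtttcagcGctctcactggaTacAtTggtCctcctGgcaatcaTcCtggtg
Cyp3a25: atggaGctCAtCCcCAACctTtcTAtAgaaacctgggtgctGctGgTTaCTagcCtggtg
Cyp3a59: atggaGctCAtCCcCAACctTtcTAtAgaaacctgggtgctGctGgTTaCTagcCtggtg
Cyp3a13: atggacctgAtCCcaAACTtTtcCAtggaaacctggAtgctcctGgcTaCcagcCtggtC
Cyp3a41a and Cyp3a41b shared every base of this stretch, as did Cyp3a25 and Cyp3a59. Over the whole coding sequence, Cyp3a11 was 95.2% identical to Cyp3a41a, 95.0% to Cyp3a41b, 94.9% to Cyp3a44 and 92.8% to Cyp3a16. It was only 76.1% identical to Cyp3a25, 75.7% to Cyp3a59 and 76.7% to Cyp3a13. Cyp3a25 and Cyp3a59 were 97.5% identical to each other, and Cyp3a41a and Cyp3a41b differed at 2 of 1512 coding bases.

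At 150 bases, the read length of the study, every stretch of the main transcripts of Cyp3a11, Cyp3a16, Cyp3a44 and Cyp3a13 was found in no other gene's transcript. The share was 99.3% for Cyp3a25 and 99.3% for Cyp3a59, but 17.1% for Cyp3a41a and 17.3% for Cyp3a41b. At 75 bases it was 96.3% for Cyp3a11, 88.8% for Cyp3a25 and 89.2% for Cyp3a59. A single read of Cyp3a41a or Cyp3a41b could thus seldom be assigned to either gene. The reads were paired, and pairs, which can span more sequence, were not examined. The handling of reads with several matches is not given in the sources used here, so counts of these 2 genes are uncertain.

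Promoter sequences were compared as a description of the family, and their bearing on the RNA values was not tested. They come from RefSeq (GRCm38.p6), which had all 8 genes, and cover the 250 bases before the RefSeq start. Bases inside the GENCODE gene are left out, 110 of them for Cyp3a11 and 1 for Cyp3a59. Capitals mark matches on either strand to the nuclear receptor motifs AGGTCA or AGTTCA, to CAAAGTCCA, a motif of the HNF4 type, or to the TATA motif TATAAA.
Cyp3a11, chr5:145879965-145880104, minus strand: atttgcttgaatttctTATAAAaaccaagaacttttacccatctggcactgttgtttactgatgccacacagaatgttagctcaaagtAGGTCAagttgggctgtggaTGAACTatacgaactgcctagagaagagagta
Cyp3a25, chr5:146009619-146009868, minus strand: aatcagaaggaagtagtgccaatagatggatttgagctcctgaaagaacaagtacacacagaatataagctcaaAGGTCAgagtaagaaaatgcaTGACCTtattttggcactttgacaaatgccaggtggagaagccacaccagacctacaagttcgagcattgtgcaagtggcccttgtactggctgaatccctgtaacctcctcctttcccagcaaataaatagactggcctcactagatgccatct
Cyp3a59, chr5:146079008-146079256, plus strand: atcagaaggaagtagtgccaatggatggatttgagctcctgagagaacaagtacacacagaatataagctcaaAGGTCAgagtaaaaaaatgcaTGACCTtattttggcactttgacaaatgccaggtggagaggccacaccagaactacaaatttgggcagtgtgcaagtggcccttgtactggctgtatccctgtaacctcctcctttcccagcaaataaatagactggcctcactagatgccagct
Cyp3a13, chr5:137921620-137921869, minus strand: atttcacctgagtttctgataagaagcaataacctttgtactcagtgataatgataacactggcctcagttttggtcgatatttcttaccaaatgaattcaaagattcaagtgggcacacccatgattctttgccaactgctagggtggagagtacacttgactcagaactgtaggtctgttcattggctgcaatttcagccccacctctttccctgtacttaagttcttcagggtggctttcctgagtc
The Cyp3a25 and Cyp3a59 windows were 94.8% identical and each held AGGTCA on both strands, at the same distance from one another. The Cyp3a11 window was 52.7% identical to that of Cyp3a25. AGGTCA was found in 4 of the 8 promoters (Cyp3a11, Cyp3a25, Cyp3a44 and Cyp3a59) and in 13.8% of 27025 mouse promoters of the same length. AGTTCA was found for Cyp3a11, Cyp3a41a and Cyp3a41b and in 11.9% of all promoters. CAAAGTCCA was found for Cyp3a11, Cyp3a16, Cyp3a41a and Cyp3a41b, against 0.381% of all promoters. In Cyp3a11 it lay from 109 to 101 bases before the RefSeq start, in the part not shown. TATAAA was found for these 4 and for Cyp3a44, against 13.0% of all promoters, and TTCNNNGAA, the STAT5 motif, was found in none of the 8 windows and in 7.18% of all. The windows of Cyp3a16, Cyp3a41a, Cyp3a41b and Cyp3a44 were 90.9% to 99.6% identical to one another and 72.1% to 76.6% identical to that of Cyp3a11. Matches shared by these genes are therefore not independent of one another. The matches did not overlap one another, the motifs were chosen with the windows in view, and a match describes letters only.

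Total counts per library ranged from 16632146 to 37739301. Libraries FPC-LIPA 36, 37 and 39 stood apart. Cytosolic ribosomal protein genes took 6.48%, 8.09% and 8.15% of their counts, against 2.16% to 2.95% in the other 3 FPC-LIPA libraries, 1.44% to 1.80% in FPC-GFP and 1.75% to 2.54% in CON-GFP. The sample names end in sheet numbers, and 14 libraries had numbers from 55 to 68, while CON-GFP 1, CON-GFP 2, FPC-GFP 20 and also FPC-LIPA 37 had higher ones. The last 3 of these also had the smallest totals. Results that rest on these libraries are given with and without them. Hepatocyte markers were high in every library, with 45421 to 98262 CPM (library-scaled counts relative to sequencing depth) summed over 6 genes, Xist reached at most 8 counts, and the 4 Y-linked genes examined were detected throughout. The reads were mapped to the mouse genome, so the human LIPA transgene was not counted here. Mouse Lipa differed by -0.16 on the log2 scale between FPC-LIPA and FPC-GFP (SE 0.18, adjusted p = 0.513, edgeR).

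Per kilobase of exon, Cyp3a11 stood far above the rest of the family. Its mean over the 18 libraries was 855 CPM per kilobase, followed by Cyp3a25 with 260, Cyp3a13 with 58.6 and Cyp3a59 with 16.4. Cyp3a16 had 0.193, Cyp3a44 had 0.0355, Cyp3a41b had 0.0101 and Cyp3a41a had 0.0035. In every library except CON-GFP 2 the order Cyp3a11, Cyp3a25, Cyp3a13, Cyp3a59 held on this scale, and in CON-GFP 2 Cyp3a25 (492) and Cyp3a11 (487) were close to each other. The length used for Cyp3a11 includes the retained intron of another annotated transcript, which lowers its value. In counts over all libraries, Cyp3a11 had 2098226, Cyp3a25 had 264781, Cyp3a13 had 85626 and Cyp3a59 had 16452.

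**Figure D1:**
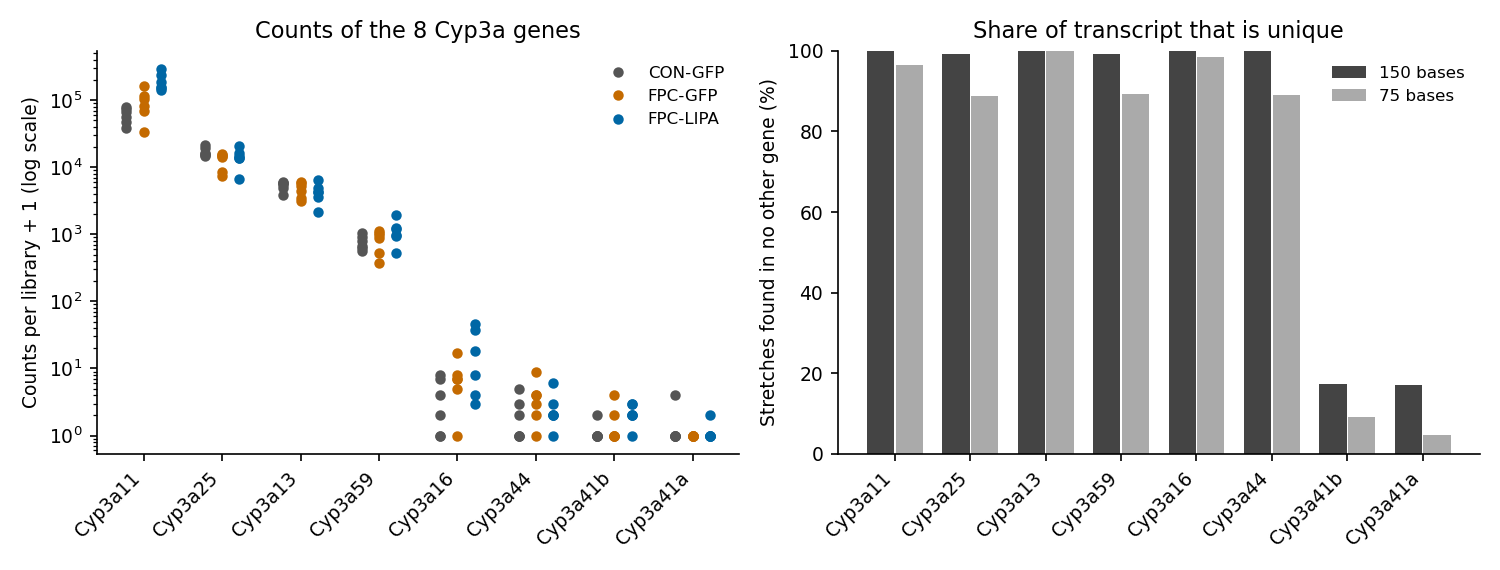
Left: counts of each Cyp3a gene in each of the 18 libraries, plus 1, on a log scale, with groups in colour. Right: percent of 150-base and 75-base stretches of each main transcript that no other gene's transcript holds. The 4 genes on the left of each panel had by far the most counts, the other 4 had at most 45 in any library, and Cyp3a41b and Cyp3a41a share most of their sequence.

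The low genes were near or at the floor, taken as 3 counts per library. Cyp3a16 had 166 counts in all, with 0, 0, 1, 3, 6 and 7 in CON-GFP, 0, 4, 6, 6, 7 and 16 in FPC-GFP and 2, 3, 7, 17, 36 and 45 in FPC-LIPA. The 2 largest values, 36 and 45, were in FPC-LIPA 36 and 39, which also had much Cyp3a11. Per 100000 counts of Cyp3a11 in the same library, Cyp3a16 had 0 to 14.9 counts in CON-GFP, 0 to 15.6 in FPC-GFP and 1.33 to 18.7 in FPC-LIPA, so the groups overlapped on that scale. Cyp3a44 had 34 counts in 13 libraries, with at most 8 in any of them. Cyp3a41b had 12 counts in 8 libraries and Cyp3a41a had 4 in 2 libraries. These 4 genes did not pass the filter on low counts and were not tested in any comparison of all 12 libraries, so 4 of the 8 Cyp3a genes were tested. Cyp3a16 entered some alternative fits, whose values are given with the other alternatives. Of the other rows with a Cyp3a symbol, Cyp3a57 had 46 counts, with 10 in CON-GFP, 18 in FPC-GFP and 18 in FPC-LIPA. The pseudogenes Cyp3a61-ps1 and Cyp3a63-ps had 0 and 1.

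Cyp3a11 RNA was highest in FPC-LIPA livers and varied most among them. In CON-GFP it was 1357, 2167, 2478, 2633, 2690 and 3099 CPM, a mean of 2404 ± 596 (SD, n = 6). In FPC-GFP it was 1656, 2145, 2837, 3174, 3544 and 4961 CPM, a mean of 3053 ± 1159 (SD, n = 6). In FPC-LIPA it was 3694, 4530 and 5066 CPM in libraries 33, 31 and 34, and 8444, 10394 and 13552 CPM in 36, 39 and 37, a mean of 7613 ± 3874 (SD, n = 6). All 6 FPC-LIPA values lay above all CON-GFP values, 4 of 6 lay above all FPC-GFP values, and 3 of 6 FPC-GFP values lay above all CON-GFP values. In these bulk samples, fewer cells of a type and less RNA per cell cannot be told apart.

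Genes were called differentially expressed (DE) at an adjusted p under 0.05 and an absolute fold change of at least 2. The test was the quasi-likelihood test of edgeR, and p-values were adjusted over all genes tested by the method of Benjamini and Hochberg. With the FPC diet under GFP, Cyp3a11 differed by 0.34 on the log2 scale (SE 0.24, adjusted p = 0.304), a difference within the spread between mice. No Cyp3a gene was DE in FPC-GFP against CON-GFP, where 7.2% of the 14307 genes tested were, 4.76% higher and 2.44% lower. For each of the 4 the groups overlapped, while 10.4% of all genes tested had groups that did not. At an unadjusted p under 0.05, Cyp3a25 and Cyp3a13 were lower there, and with the DESeq2 Wald test the count of DE genes was also 0.

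In FPC-LIPA against FPC-GFP, Cyp3a11 rose 2.66-fold, by 1.41 on the log2 scale (SE 0.36, adjusted p = 0.0204). It was the DE gene among the 4 tested, against 11.4% of 14620 genes, 10.3% higher and 1.11% lower. At any fold, 21.2% of genes passed the adjusted p, 14.4% higher and 6.87% lower. Against CON-GFP, Cyp3a11 in FPC-LIPA rose 3.28-fold, by 1.71 (SE 0.34, adjusted p = 0.00273), and again was the DE gene of the 4, where 15.1% of 14433 genes were DE, 11.8% higher and 3.25% lower. At any fold, 22.9% passed the adjusted p there, 14.7% higher and 8.2% lower. Its groups did not overlap in that comparison, which held for 11.1% of the genes tested. The latter 2 comparisons share the FPC-LIPA libraries, and the diet and LIPA comparisons share the FPC-GFP libraries.

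The size of the Cyp3a11 increase rested on the 3 libraries rich in ribosomal protein RNA. Without FPC-LIPA 36, 37 and 39, the difference from FPC-GFP was 0.55 (SE 0.26, adjusted p = 0.285) and that from CON-GFP was 0.90 (SE 0.23, adjusted p = 0.0160), which is under 2-fold. Among libraries with sheet numbers from 55 to 68, the differences were 1.00 (SE 0.32, adjusted p = 0.0887) and 1.57 (SE 0.36, adjusted p = 0.0213). All 3 libraries were of 1 group, and the part of the ribosomal share in the result was not tested.

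**Figure D2:**
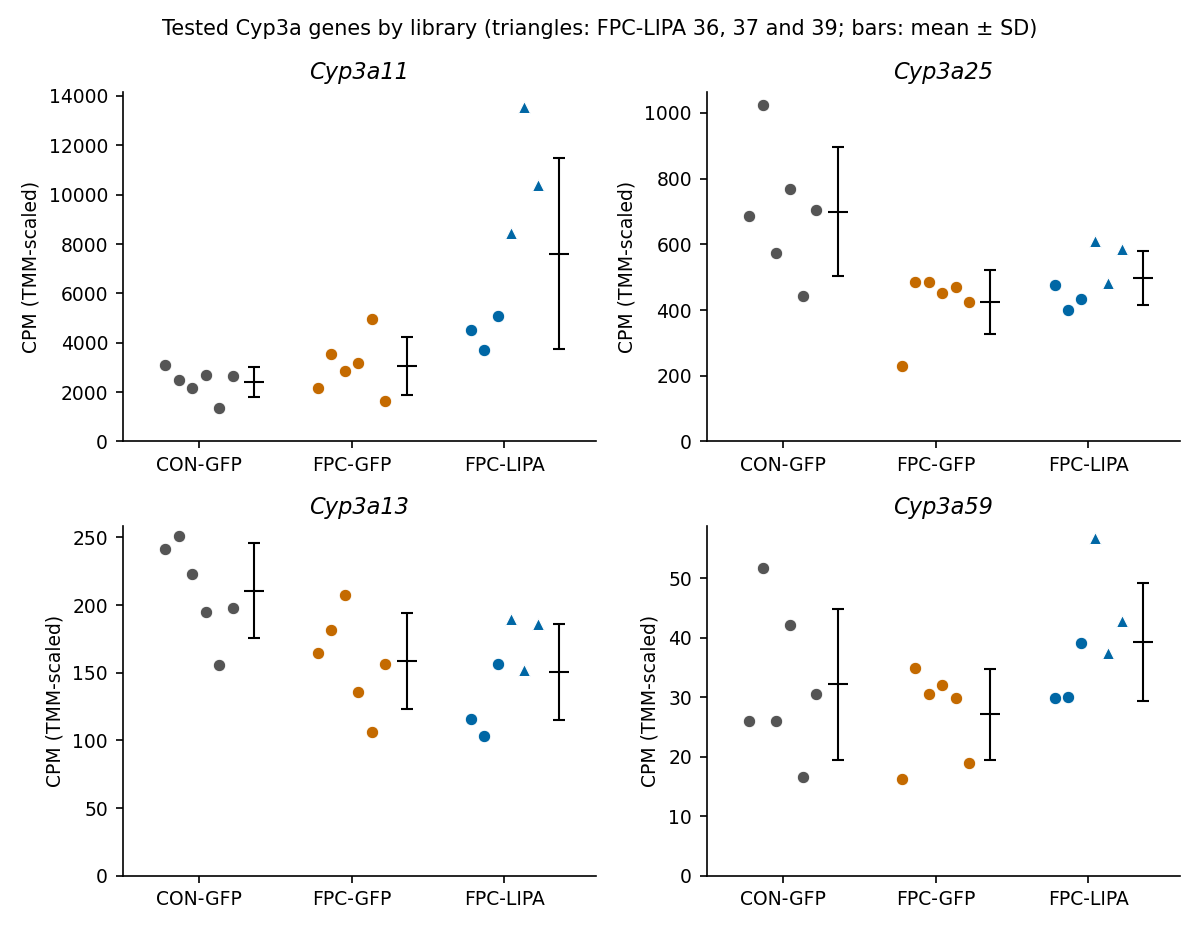
CPM of the 4 tested Cyp3a genes in each library, by group. Points are libraries, triangles are FPC-LIPA 36, 37 and 39, and bars are the mean ± SD of 6 libraries. Cyp3a11 lay between 3694 and 13552 CPM in FPC-LIPA and up to 3099 CPM in CON-GFP, while Cyp3a25 was lower on the FPC diet than its CON-GFP mean of 700 CPM in every library.

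Cyp3a25, a hepatic enzyme of the same cluster, was lower with the FPC diet under GFP. In CON-GFP it was 442, 573, 685, 705, 770 and 1024 CPM (mean 700 ± 196, SD, n = 6). In FPC-GFP it was 230, 425, 452, 470, 486 and 486 CPM (mean 425 ± 98.4, SD, n = 6), and in FPC-LIPA it was 399, 433, 476, 482, 585 and 609 CPM (mean 497 ± 83.4, SD, n = 6). Of the FPC-GFP libraries, 2 lay below all CON-GFP libraries and the others overlapped the lowest of them. Cyp3a25 fell by 0.72 on the log2 scale in FPC-GFP against CON-GFP (SE 0.21, adjusted p = 0.0222), less than 2-fold. It was the only one of the 4 to pass the adjusted p alone, as 23.8% of genes did, 12.9% higher and 10.9% lower. The call was lost with library size in place of TMM scaling (-0.50, adjusted p = 0.0656), with sheet numbers 55 to 68 (-0.55, adjusted p = 0.122) and without CON-GFP 2 (-0.57, adjusted p = 0.0506).

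With LIPA, Cyp3a25 differed from FPC-GFP by 0.29 (SE 0.21, adjusted p = 0.306) and from CON-GFP by -0.46 (SE 0.22, adjusted p = 0.135), neither past the threshold. The 3 libraries with most Cyp3a11, FPC-LIPA 36, 39 and 37, also had the most Cyp3a25 of their group, at 609, 585 and 482 CPM, but FPC-LIPA 37 lay close to FPC-LIPA 31, at 476.

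Cyp3a13, the member outside the cluster, and Cyp3a59, the neighbour and near copy of Cyp3a25, did not pass edgeR's test in any comparison of all 12 libraries. Cyp3a13 was 156, 195, 198, 223, 241 and 250.9 CPM in CON-GFP, 106, 136, 157, 164, 181 and 208 in FPC-GFP and 103, 116, 152, 156, 186 and 190 in FPC-LIPA, so that all groups overlapped. It differed by -0.41 with the diet (SE 0.16, adjusted p = 0.0804), which passed without CON-GFP 7 (-0.48, adjusted p = 0.0395) and without FPC-GFP 13 (-0.49, adjusted p = 0.0466). It differed by -0.01 with LIPA on the FPC diet (SE 0.21, adjusted p = 0.969) and by -0.45 between FPC-LIPA and CON-GFP (SE 0.20, adjusted p = 0.115). Without FPC-LIPA 36, 37 and 39, the last difference was -0.74 (adjusted p = 0.0181).

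Cyp3a59 was 16.5 to 51.7 CPM in CON-GFP, 16.3 to 35.0 in FPC-GFP and 29.9 to 56.7 in FPC-LIPA. Of the FPC-LIPA libraries, 4 lay above all FPC-GFP libraries. The difference from FPC-GFP was 0.61 (SE 0.22, adjusted p = 0.0636), which passed with the DESeq2 Wald test (adjusted p = 0.0467) and without FPC-LIPA 33 (adjusted p = 0.0304). With the diet it differed by -0.25 (SE 0.25, adjusted p = 0.495), and between FPC-LIPA and CON-GFP by 0.33 (SE 0.26, adjusted p = 0.369). The median log2 difference of the 4 tested genes was -0.33, 0.45 and -0.06 in the 3 comparisons, beside 0.01, 0.04 and 0.04 for all genes tested.

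**Figure D3:**
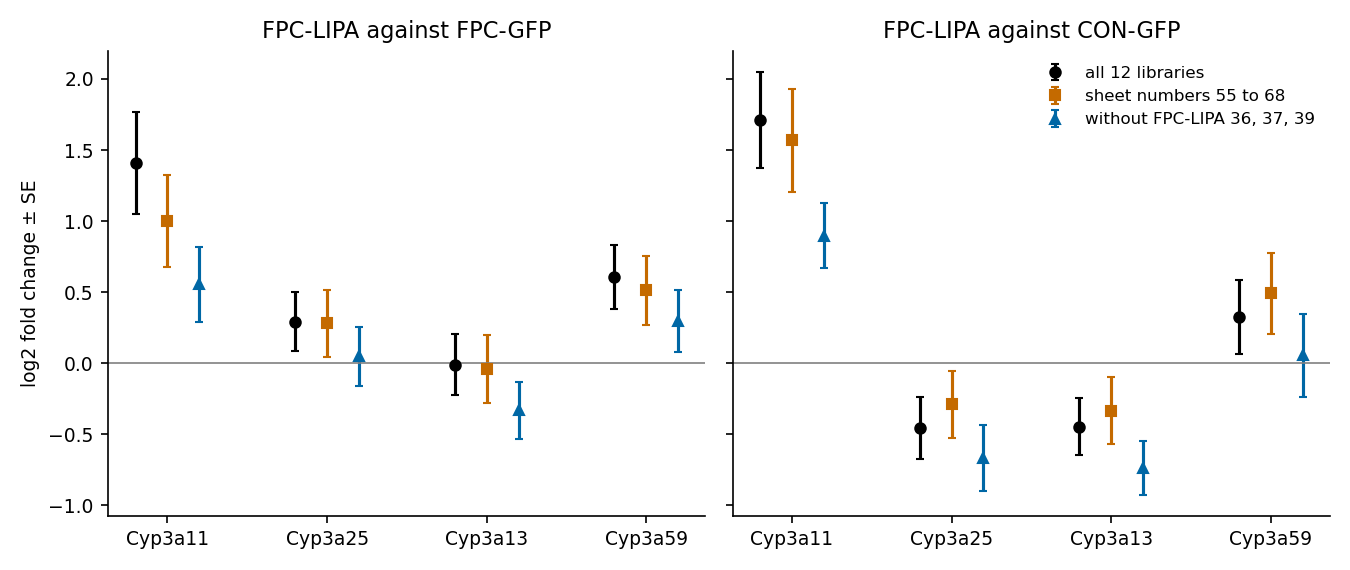
Log2 fold changes ± SE of the 4 tested Cyp3a genes for FPC-LIPA against FPC-GFP (left) and CON-GFP (right), with all 12 libraries, with sheet numbers 55 to 68 only, and without FPC-LIPA 36, 37 and 39. Cyp3a11 went from 1.41 to 0.55 against FPC-GFP and from 1.71 to 0.90 against CON-GFP when the 3 libraries were left out.

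Ratios of counts within a library do not depend on how libraries are scaled, and they show how the makeup of the family differed between groups. Cyp3a11 held 71.6% ± 4.01 of all Cyp3a counts in CON-GFP, 82.2% ± 5.26 in FPC-GFP and 90.5% ± 3.05 in FPC-LIPA (SD, n = 6 each). Its counts per Cyp3a25 count were 2.42 to 4.53 in CON-GFP, 3.90 to 10.6 in FPC-GFP and 9.27 to 28.1 in FPC-LIPA. Every FPC-LIPA library lay above every CON-GFP library, and 5 of 6 FPC-GFP libraries did so, FPC-GFP 20 being the exception. FPC-LIPA 31, 33 and 34, at 9.52, 9.27 and 11.7, lay within or just above the FPC-GFP range, and FPC-LIPA 36, 39 and 37, at 13.9, 17.8 and 28.1, lay above it.

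Counts of Cyp3a25 per count of its near copy Cyp3a59 were lower on the FPC diet. They were 18.3 to 26.7 in CON-GFP (mean 22.7 ± 3.40), 13.9 to 22.4 in FPC-GFP (mean 16.0 ± 3.24) and 10.7 to 15.9 in FPC-LIPA (mean 12.9 ± 1.88, SD, n = 6 each). FPC-LIPA and CON-GFP did not overlap, and FPC-GFP 20, at 22.4, was the FPC-GFP library inside the CON-GFP range. FPC-LIPA 36, at 10.7, was the lowest of its group, and FPC-LIPA 37 and 39, at 12.9 and 13.6, lay between FPC-LIPA 34, at 11.1, and FPC-LIPA 31, at 15.9. Cyp3a25 per Cyp3a13 overlapped throughout, with means of 3.31, 2.81 and 3.38. Together the 8 genes took 0.309% ± 0.0622 of all counts in CON-GFP, 0.395% ± 0.141 in FPC-GFP and 0.792% ± 0.269 in FPC-LIPA (SD, n = 6 each). These ratios were chosen with the values in view and are given without a test.

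**Figure D4:**
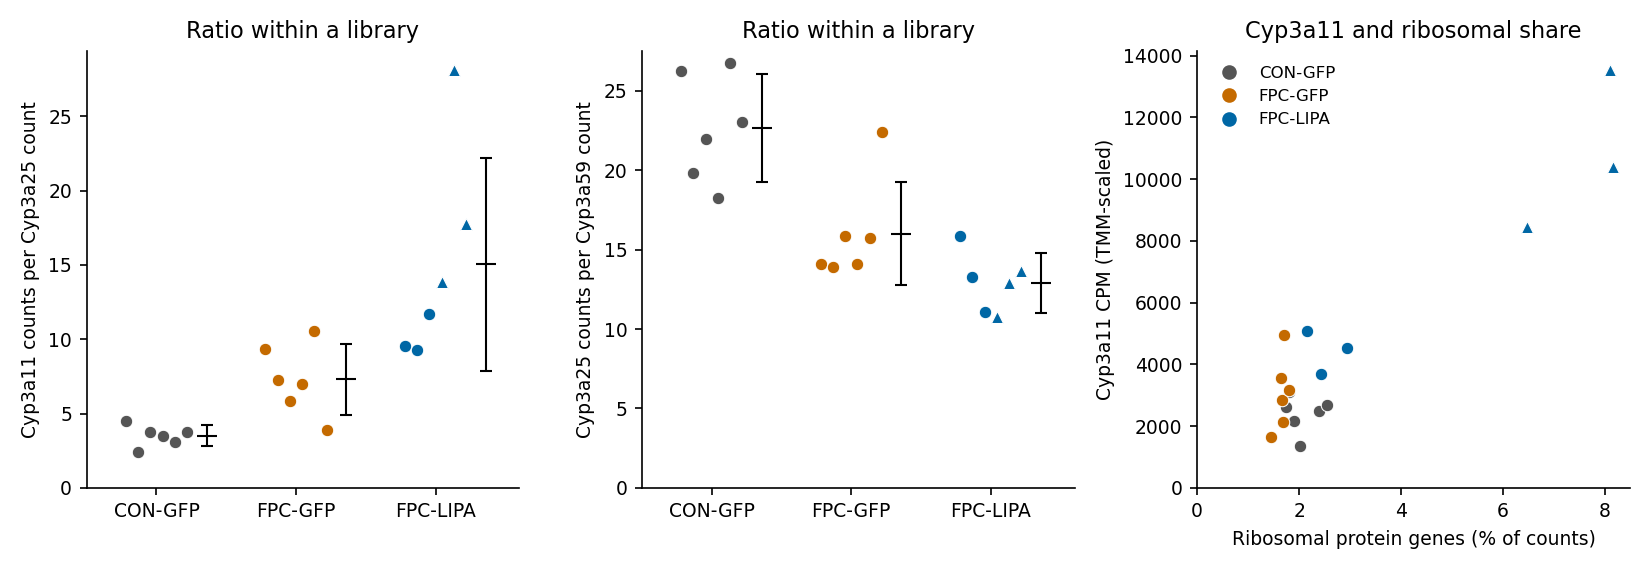
Left and middle: counts of Cyp3a11 per Cyp3a25 count and of Cyp3a25 per Cyp3a59 count in each library, with mean ± SD of 6 libraries. Right: Cyp3a11 CPM against the percent of counts on ribosomal protein genes. Triangles are FPC-LIPA 36, 37 and 39, which lie at 6.48% to 8.15% and 8444 to 13552 CPM, apart from the other 15 libraries.

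Within groups, Cyp3a25 and Cyp3a59 varied together most. After each group's mean was removed from log2 CPM, their Pearson correlation over 18 libraries was 0.877, against 0.605 for Cyp3a11 with Cyp3a59, 0.549 for Cyp3a11 with Cyp3a25 and 0.333 to 0.441 for Cyp3a13 with the other 3 members. The points share libraries and scaling, Cyp3a25 and Cyp3a59 share some sequence, and no test was made. Only group means were removed, so the gap between FPC-LIPA 36, 37 and 39 and the rest of their group remains in all these correlations. Among 12731 genes whose mean reached 1 CPM, the genes outside the family most like Cyp3a11 were Gm4459 (0.905), Gsta4 (0.888), a glutathione transferase, and Macrod2 (0.874). Those most like Cyp3a25 were Zfand1 (0.882), Map2k6 (0.869) and Aspa (0.847), those most like Cyp3a13 were Adtrp (0.858), Slc25a13 (0.834) and Atl2 (0.830), and those most like Cyp3a59 were Tmem14a (0.826), Prxl2a (0.813) and D3Ertd751e (0.812).

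Genes beside the family passed the adjusted p at shares that can be read against 23.8%, 21.2% and 22.9% of all genes in the 3 comparisons. Other protein-coding genes within 250 kb of the cluster numbered 11, among them Cyp3a57, itself a Cyp3a gene, which was not tested. Of the 11, 7 were tested, and at an adjusted p under 0.05 none rose and 2 fell with the diet, 1 rose and none fell with LIPA on the FPC diet, and none rose and 1 fell between FPC-LIPA and CON-GFP. Near Cyp3a13, 15 of 20 genes were tested, and 5 rose and 3 fell with the diet, 1 fell with LIPA, and 3 rose and 1 fell between FPC-LIPA and CON-GFP.

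Counts of the gene lists that follow can be read against the same shares of all genes. Without FPC-LIPA 36, 37 and 39, only 1.22% of all genes passed against FPC-GFP and 18.0% against CON-GFP.

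Of 13 regulators tested, none rose in any comparison, and 5, 4 and 7 fell with the diet, with LIPA on the FPC diet and between FPC-LIPA and CON-GFP. The median log2 differences were -0.34, -0.29 and -0.65. Nr1i2, which encodes PXR, was 145 ± 35.8 CPM in CON-GFP, 90.8 ± 15.9 in FPC-GFP and 87.7 ± 27.9 in FPC-LIPA (SD, n = 6 each). It fell by 0.67 with the diet (SE 0.17, adjusted p = 0.00994) and differed by 0.01 with LIPA (SE 0.21, adjusted p = 0.985). Nr1i3, which encodes CAR, fell by 0.70 with the diet (SE 0.19, adjusted p = 0.0144) and differed by 0.07 with LIPA (SE 0.32, adjusted p = 0.888).

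Nr1h4 (the bile acid receptor FXR), Nr3c1 (the glucocorticoid receptor) and Ppargc1a (a coactivator) also fell with the diet, by 0.34, 0.53 and 1.17 (adjusted p = 0.0354, 0.0325 and 0.00869). The diet calls of Nr1h4 and Nr3c1 were lost in 6 and 7 of 12 fits that each left out 1 library, and that of Ppargc1a was kept. With LIPA on the FPC diet, Rxra fell by 0.95 (SE 0.23, adjusted p = 0.0183), Hnf4a, a hepatocyte master regulator, by 0.98 (SE 0.32, adjusted p = 0.0425) and Cebpa by 0.88 (SE 0.20, adjusted p = 0.0159), and Onecut1, at 1.30 CPM in FPC-LIPA, by 2.38. Rxra was 181 ± 62.5 CPM in FPC-LIPA and 359 ± 59.9 in FPC-GFP (SD, n = 6 each), with no overlap, which held for 7.66% of the genes tested. Between FPC-LIPA and CON-GFP, these 4, Nr1i2, Nr1h4 and Ppargc1a fell. In that comparison the calls of Nr1i2, Hnf4a and Cebpa were lost in 8, 3 and 1 of 12 such fits, and the other calls were kept. Without FPC-LIPA 36, 37 and 39, none of the 13 passed against FPC-GFP, with a median of -0.30, and 4 fell against CON-GFP, with a median of -0.61. With LIPA on the FPC diet, the calls of Hnf4a and Onecut1 were also lost in 10 and 7 of 12 fits that each left out 1 library. Their values there ranged from -1.18 to -0.83 and from -2.76 to -1.47. The calls of Rxra and Cebpa with LIPA on the FPC diet were kept in all 12.

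Among genes of electron transfer and heme supply, Por was 363 ± 199 CPM in CON-GFP, 388 ± 157 in FPC-GFP and 320 ± 243 in FPC-LIPA (SD, n = 6 each) and passed in no comparison (adjusted p = 0.866, 0.709 and 0.849). Of 8 genes, 2 rose and 1 fell with the diet, 2 rose with LIPA on the FPC diet and 1 rose between FPC-LIPA and CON-GFP, beside 23.8%, 21.2% and 22.9% of all genes. Cyb5a, cytochrome b5, fell by 0.85 with the diet (SE 0.16, adjusted p = 0.00204) and rose by 0.81 with LIPA (SE 0.27, adjusted p = 0.0471). Pgrmc1, a heme-binding partner of P450 enzymes, rose by 1.27 with LIPA (SE 0.39, adjusted p = 0.0356). Cyb5b, the outer mitochondrial cytochrome b5, rose by 0.42 with the diet, and Hmox1, which degrades heme, by 0.79, and by 1.20 in FPC-LIPA against CON-GFP. None of the 8 passed against FPC-GFP without FPC-LIPA 36, 37 and 39, where Cyb5a differed by 0.09 and Pgrmc1 by 0.12.

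Of 17 other known targets of PXR and CAR tested, 2 rose and 2 fell with the diet, 2 rose and 1 fell with LIPA on the FPC diet, and 4 rose and 4 fell between FPC-LIPA and CON-GFP. Gstm1 and Gstm3, glutathione transferases, rose with the diet by 1.93 (SE 0.24, adjusted p = 0.000189) and 3.03 (SE 0.46, adjusted p = 0.000637). Cyp2c50, a P450 of the 2C family, fell by 0.99 with the diet (SE 0.22, adjusted p = 0.00615), as did Slco1a4, an organic anion transporter, by 1.65 (SE 0.35, adjusted p = 0.00461). With LIPA, Cyp2c55 rose by 1.27 (SE 0.40, adjusted p = 0.0392) and Slco1a4 by 1.05 (SE 0.28, adjusted p = 0.0235), while Cyp2c29 fell by 1.00 (SE 0.34, adjusted p = 0.0484). Between FPC-LIPA and CON-GFP, Cyp2c50 fell by 1.84 and Cyp2c29 by 1.43, and Gstm3 rose by 3.18 and Cyp2c55 by 1.80. Aldh1a1 and Gstm1 had the highest means, and Aldh1a1 passed in no comparison (adjusted p = 0.170, 0.656 and 0.159). None of the 17 passed against FPC-GFP without FPC-LIPA 36, 37 and 39, where Slco1a4 still differed by 1.00, Cyp2c55 by 0.67 and Cyp2c29 by -0.44, and 3 rose and 2 fell against CON-GFP.

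**Figure D5:**
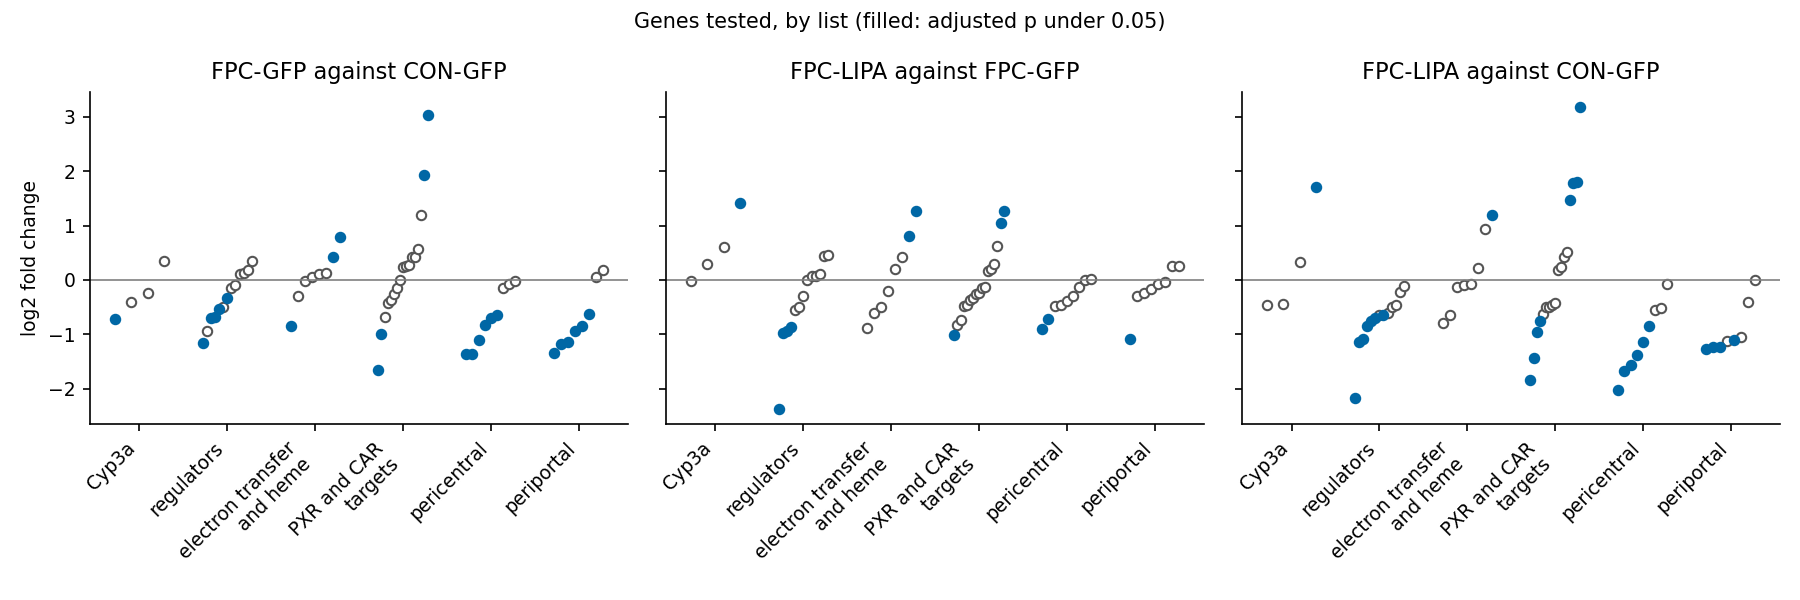
Log2 fold changes of the tested Cyp3a genes and of the genes of 5 lists in the 3 comparisons. Each circle is a gene, and filled circles have an adjusted p under 0.05. None of the 13 regulators lay among the filled circles above 0, while Cyp3a11 is the filled Cyp3a circle at 1.41 and 1.71.

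Since several Cyp3a genes are known as genes of female liver, sex-biased genes were examined. Of the female-biased genes outside Cyp3a, 3 of 11 rose with the diet, 2 of 11 with LIPA on the FPC diet and 4 of 10 between FPC-LIPA and CON-GFP, and none fell. Cyp2a4, a steroid hydroxylase, was 2.25 ± 2.51 CPM in CON-GFP, 128 ± 119 in FPC-GFP and 249 ± 220 in FPC-LIPA (SD, n = 6 each) and rose by 5.84 with the diet (SE 0.85, adjusted p = 0.000474). Cyp2c69 rose by 3.20 with the diet, Hao2 and Slc22a27 by 1.85 and 1.55 with LIPA, and Slc22a27 by 2.99 between FPC-LIPA and CON-GFP. Cyp2b9, among the 2 with the highest means, passed in no comparison. The female genes of the Cyp3a family stayed near the floor. The female-biased genes named here were the highest or most changed of their list. Of the 15 listed, only 7 reached a mean of 1 CPM in CON-GFP, 8 in FPC-GFP and 8 in FPC-LIPA.

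Of 16 male-biased genes, 8 fell and 1 rose with the diet, 9 fell and 1 rose with LIPA, and 10 fell and 1 rose between FPC-LIPA and CON-GFP. Hsd3b5, a steroid dehydrogenase, was 92.0 to 346 CPM in CON-GFP, 0.491 to 103 in FPC-GFP, with a median of 2.64, and 0.320 to 0.733 in FPC-LIPA. It fell by 3.14 with the diet (adjusted p = 0.0401) and by 5.04 with LIPA (adjusted p = 0.0180), but FPC-GFP 20 set these sizes. Without FPC-GFP 20, Hsd3b5 fell by 6.33 with the diet (adjusted p = 8.86e-06) and by 1.85 with LIPA (adjusted p = 0.0379). The diet call of Hsd3b5 was lost in 10 of 12 fits that each left out 1 library, and its LIPA call in none of 12. Without FPC-LIPA 36, 37 and 39, Hsd3b5 differed from FPC-GFP by -5.13 and did not pass (adjusted p = 0.163). Selenbp2 fell by 2.37 with the diet, a call lost in 4 of 12 fits that each left out 1 library. Mup3, a urinary protein of high level, fell by 1.64 with the diet. Cyp4a12b fell by 2.13 with LIPA, while Mup20 rose by 2.26 with LIPA (0.73, adjusted p = 0.232, without FPC-LIPA 36, 37 and 39) and Cspg5 by 2.46 with the diet. Without FPC-LIPA 36, 37 and 39, 3 male-biased genes fell against FPC-GFP, with a list median of -1.14 beside -1.22 in all libraries, and no female-biased gene passed. In the same libraries, 9 fell and 3 female-biased genes rose against CON-GFP.

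Genes of both ends of the liver lobule were lower on the FPC diet. Of 9 pericentral genes, 6 fell with the diet, 2 with LIPA and 6 between FPC-LIPA and CON-GFP. Cyp2e1, a pericentral P450, fell by 0.65 with the diet (SE 0.18, adjusted p = 0.0165), Oat by 1.35 and Rhbg by 1.36. Cyp1a2 and Slc1a2 fell by 0.91 and 0.72 with LIPA, and Cyp1a2 and Oat by 2.03 and 1.67 between FPC-LIPA and CON-GFP. Glul, at the central vein, passed in no comparison. Of 8 periportal genes, 6 fell with the diet, 1 with LIPA and 4 between FPC-LIPA and CON-GFP. They included Pck1 and Arg1, which fell by 0.85 and 0.63 with the diet, Sds and Hal, which fell by 1.35 and 1.19, Cyp2f2, which fell by 1.09 with LIPA, and Gls2, which fell by 1.27 between FPC-LIPA and CON-GFP, where Hal fell by 1.24. The calls of Cyp1a2, Slc1a2 and Cyp2f2 with LIPA were lost in 8, 3 and 7 of 12 fits that each left out 1 library. With the diet, the calls of Pck1 and Rhbg were lost in 7 and 3 of 12 such fits. Without FPC-LIPA 36, 37 and 39, none of the 9 pericentral or 8 periportal genes passed against FPC-GFP. There Cyp1a2 differed by -0.52, Slc1a2 by -0.62 and Cyp2f2 by -0.56. Against CON-GFP, 5 pericentral and 4 periportal genes fell without these 3 libraries.

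Markers of other cell types also moved. Kupffer cell markers summed to 104 to 217 CPM in CON-GFP, 298 to 524 in FPC-GFP and 396 to 827 in FPC-LIPA, with 6 of 6 higher with the diet and 3 of 6 with LIPA. Monocyte and macrophage markers summed to 36.5 to 86.5, 93.7 to 299 and 407 to 664 CPM, with 4 of 6 higher in each. Erythroid markers summed to 306 to 586, 283 to 488 and 528 to 2559 CPM, with 2 of 5 higher with LIPA. Hepatocyte markers summed to 64599 to 98262, 55946 to 82182 and 45421 to 71586 CPM, with 2 of 6 lower with the diet and 1 of 6 with LIPA. Cyp3a enzymes are also made in intestine. Of 5 intestinal markers, Sis was at 0 in all libraries and only Fabp2 reached a mean of 1 CPM in any group. The 5 summed to 237 to 475 CPM in CON-GFP, 239 to 384 in FPC-GFP and 346 to 1995 in FPC-LIPA. These sums were almost all Fabp2, which alone had 237 to 475, 239 to 384 and 346 to 1995 CPM. Fabp2 rose with LIPA by 1.95 (adjusted p = 0.0157). The difference of Fabp2 was 0.48 without FPC-LIPA 36, 37 and 39 (adjusted p = 0.203). Of 6 stellate cell markers, 2 rose with the diet and 3 with LIPA, of 5 endothelial markers 2 and 0, and of 5 cholangiocyte markers 1 and 0. B and T cell markers summed to at most 10.5 and 6.60 CPM in any library. At these low levels, 1 of 3 B cell and 1 of 4 T cell markers tested rose with LIPA. With the diet, 1 of 3 T cell markers tested fell and neither B cell marker tested passed. Without FPC-LIPA 36, 37 and 39, 2 Kupffer cell, 1 monocyte and macrophage and 3 erythroid markers rose against FPC-GFP. Pancreatic acinar markers summed to at most 0.461 CPM. The part of cell makeup in the Cyp3a values was not tested.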

How the data were processed

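RNA-Seq was made from 18 livers, 6 per group, grouped by the labels. The authors trimmed paired reads, aligned them to GRCm38 with HISAT2 2.1.0, ran Feature Counts and deposited the raw counts per gene. The strand setting, annotation version and handling of reads with several matches are not given in the sources used here, so antisense, overlapping and near-identical genes may share reads. Another 5 columns of the table were not used. Genes were filtered (filterByExpr), scaled (TMM) and tested in each pair of groups over its 12 libraries with edgeR 4.0.16 (quasi-likelihood, Benjamini-Hochberg over all genes tested) in R 4.3.3. CPM values are TMM-scaled. Genes were DE at an adjusted p under 0.05 and 2-fold; rose and fell mean an adjusted p under 0.05. The scripts were tested on simulated data. Sequences were read with Python 3.11.15.

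The Cyp3a genes, the gene lists and the tests were chosen with earlier results of these data known. All 8 Cyp3a genes were named, with the regulators and electron transfer genes that passed, and, of each other hepatocyte list and comparison, the 2 genes with the highest mean and up to 2 with the largest significant change in each direction. Nr1i2, Nr1i3 and Por were named in any case, with the 3 genes most like each tested Cyp3a gene. Fabp2 was chosen outside this rule, after its values were seen. Alternatives were DESeq2 1.42.0 size factors and Wald test, library size alone, no low-count filter, all 18 libraries in 1 fit, no fold minimum, sheet numbers 55 to 68, removal of a gene-length trend, leaving out each library, and leaving out FPC-LIPA 36, 37 and 39. List counts without these 3 libraries, and named list genes without each library, were added after seeing the data.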

Additional observations from a re-analysis of the deposited data

Results flagged for a closer look

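Cyp3a25 in FPC-GFP 11 was 230 CPM, far below the other 5 FPC-GFP libraries, of which the nearest had 425. The gap was 0.759 of the range of the group, above Dixon's critical value of 0.625 for 6 samples. It was the only such library among the 12 groups of values examined (4 Cyp3a genes in 3 groups), and chance flags about 1 group in 20.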

How the results depend on the processing

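The number of DE Cyp3a genes in FPC-GFP against CON-GFP was 0 under the alternatives tried, except 1 with no fold minimum (Cyp3a25). In FPC-LIPA against FPC-GFP it was 1, but 0 with sheet numbers 55 to 68 and 0 without FPC-LIPA 36, 37 and 39, and leaving out single libraries gave 1 to 2 (2 without FPC-LIPA 33, where Cyp3a16 passed at 2.03, adjusted p = 0.0303). In FPC-LIPA against CON-GFP it was 1, but 2 with the DESeq2 Wald test, 2 with no low-count filter, and 0 without FPC-LIPA 36, 37 and 39. Cyp3a16 was the added gene both times (2.78, adjusted p = 0.00938, and 2.65, adjusted p = 0.0422). Of all genes tested in FPC-LIPA against FPC-GFP, 1671 of 14620 were DE with all 12 libraries. The number was 96 of 14736 with sheet numbers 55 to 68 and 116 of 15246 without FPC-LIPA 36, 37 and 39. Against CON-GFP, 2176 of 14433 genes were DE with all 12 libraries and 1723 of 15113 without these 3. There the DESeq2 Wald test called 2801 of 25624, and the fit with no low-count filter 2296 of 25624. Of 236 recomputed single-gene values, 222 kept their direction and side of the threshold, 5 lost and 5 gained the call, and 4 turned sign. These 4 were Cyp3a13 in FPC-LIPA against FPC-GFP without FPC-GFP 12 (0.02), FPC-GFP 13 (0.07), FPC-LIPA 31 (0.06) and FPC-LIPA 33 (0.0781), in a range from -0.1114 to 0.0781 over the libraries left out. Library size in place of TMM moved the median log2 difference of all genes to 0.21, -0.09 and 0.12. The causes were not tested. No paired analysis was possible because the groups share no mouse numbers. Cyp3a16, at no more than 45 counts in any library, passed only in the fits named here, and Cyp3a44, Cyp3a41a and Cyp3a41b, at no more than 8, could not be compared at this depth. Of the calls of named genes of the lists, 7 of 30 with the diet, 13 of 20 with LIPA on the FPC diet and 4 of 29 between FPC-LIPA and CON-GFP were lost without at least 1 single library, and none turned sign.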
